A study of Mus musculus with 15 samples.

Results

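The genes described here are 9 transporters that carry sugars or small organic acids such as lactate across cell membranes, of 47069 genes measured. They were chosen by name, as the rows of the expression table with the symbols Slc5a1, Slc5a2, Slc5a8, Slc5a10, Slc5a12, Slc2a1, Slc2a2, Slc2a5 and Slc16a1. RNA-Seq values were available for 12 libraries of single proximal tubules dissected by hand from mouse kidney and labelled PTS2, and for 3 libraries of whole kidney. The PTS2 libraries form 3 sets named m1, m2 and m3, each with the replicate numbers 1 to 4. Both kinds of library came from male C57BL/6 mice aged 2 months, with no other treatment named, and cDNA was made from polyA RNA with a SMART-Seq kit for ultra low input. The labels do not say what m stands for, what the numbers 1 to 4 follow, or whether libraries came from separate animals, so p-values measure only the spread between these libraries, which may be technical. The values are TPM, transcript abundances scaled to transcript length and to a common total, so that levels can be compared between genes. Since TPM hold no read numbers, the depth of a library is unknown, and values come without a counting error.

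The proximal tubule takes back the sugar that the glomerulus filters. On the apical side, which faces the filtrate, cotransporters of the SLC5 family draw sugars or lactate into the cell together with sodium, and on the basolateral side facilitative carriers of the SLC2 family let glucose pass down its gradient to the blood. The early segment, S1, is known for the high-capacity glucose cotransporter SGLT2 and its exit carrier GLUT2, and the late segment, S3, for the high-affinity cotransporter SGLT1 and the carrier GLUT1. Monocarboxylates are handled by sodium-coupled carriers of the SLC5 family and by proton-coupled carriers of the SLC16 family.

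Promoter sequences from RefSeq (mouse build GRCm38.p6) were found for 7 of the 9 genes, all but Slc5a2 and Slc5a12, with 8 promoters in all. Of the motifs searched on both strands, the one given here is CACGTG, the E-box bound among others by clock factors, which was chosen after values were seen. It was in the promoters of Slc5a1 and Slc16a1, and 7.15% of 32851 promoters of the same length hold it. The windows of these genes are shown up to the base before the transcription start because they hold the motif, which is in capitals. They lie at chr5:33103969-33104218 and chr3:104638414-104638663, both on the plus strand, and a match of letters is a description only.
Slc5a1: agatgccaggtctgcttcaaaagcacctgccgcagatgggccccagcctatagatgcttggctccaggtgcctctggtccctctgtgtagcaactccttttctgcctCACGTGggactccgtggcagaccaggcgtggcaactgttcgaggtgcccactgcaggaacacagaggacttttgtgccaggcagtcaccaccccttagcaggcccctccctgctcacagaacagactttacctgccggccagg
Slc16a1: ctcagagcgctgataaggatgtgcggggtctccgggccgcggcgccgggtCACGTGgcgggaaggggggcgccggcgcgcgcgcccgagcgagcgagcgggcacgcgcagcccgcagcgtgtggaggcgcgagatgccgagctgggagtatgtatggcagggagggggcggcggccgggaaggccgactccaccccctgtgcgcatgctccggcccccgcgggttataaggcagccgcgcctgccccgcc

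Marker genes of other cell types mostly had low sums in the PTS2 libraries. For distal nephron segments, podocytes, erythroid cells and stroma the PTS2 mean was 0.144% to 5.33% of the kidney mean, and for endothelium it was 14.2%. The macrophage sum was at 91.5%, of which Csf1r held most at 39.1 TPM, while C1qa, Cd68 and Adgre1 were below the kidney range in every library. The S1 genes Gatm, Slc6a19 and Slc7a7, none of them among the 9, summed to between 33.22 and 56.48 TPM, and to between 1499 and 1666.32 in kidney. The S2 genes Slc22a6 and Slc22a8 summed to 86.2% of the kidney mean, while the S3 genes Slc7a13, Cyp7b1 and Slc22a7 summed to 265% of it. The S2 sums thus overlapped those of kidney (368.31 to 1149 against 718.66 to 781.38 TPM), and the S3 sums lay above them (2107 to 4483 against 1139 to 1424). By gene, Slc22a6 overlapped kidney (means of 585 and 486 TPM), while Slc22a8 was below the kidney range in every PTS2 library (68.0 and 272). Of the S3 genes, Cyp7b1 overlapped kidney. The name PTS2 is used below as the labels give it. The library m3 replicate 3 stood apart with 1441 TPM of 5 thick ascending limb genes (Umod, Slc12a1, Cldn16, Ptger3, Kcnj1), against at most 55.8 in the other PTS2 libraries and 2569 on average in kidney. Genes at 1 TPM or more numbered 10983 to 11511 per PTS2 library and 13236 to 13328 per kidney library.

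Against whole kidney, the PTS2 tubules had higher levels of the sodium cotransporters Slc5a10 and Slc5a8 and of the fructose carrier Slc2a5, and almost none of Slc5a2 and Slc5a12. With limma on log2(TPM + 1) and Benjamini-Hochberg adjustment, 8 of the 9 transporters differed at an adjusted p under 0.05. Slc5a10, Slc5a8 and Slc2a5 were higher in PTS2, and Slc5a2, Slc5a12, Slc2a1, Slc2a2 and Slc16a1 were lower. Of all 12039 genes tested, 46.9% passed the same threshold, 8.69% higher and 38.2% lower. All 9 genes passed the filter of a mean of 1 TPM, but Slc5a2 and Slc5a12 passed only through the kidney libraries, so that they had to differ. The PTS2 and kidney libraries did not overlap for 6 of the 9, and for 37.8% of all genes tested. The median log2 difference of all genes was -0.27. It moved to -0.03 with median-of-ratios rescaling and to 0.16 with quantile normalization, and the share of higher genes among those called moved from 18.5% to 46.9% and 64.3%. None of the 9 transporters changed direction with either. In bulk samples such as the kidney libraries, fewer cells of a type and less RNA per cell cannot be told apart.

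**Figure D1:**
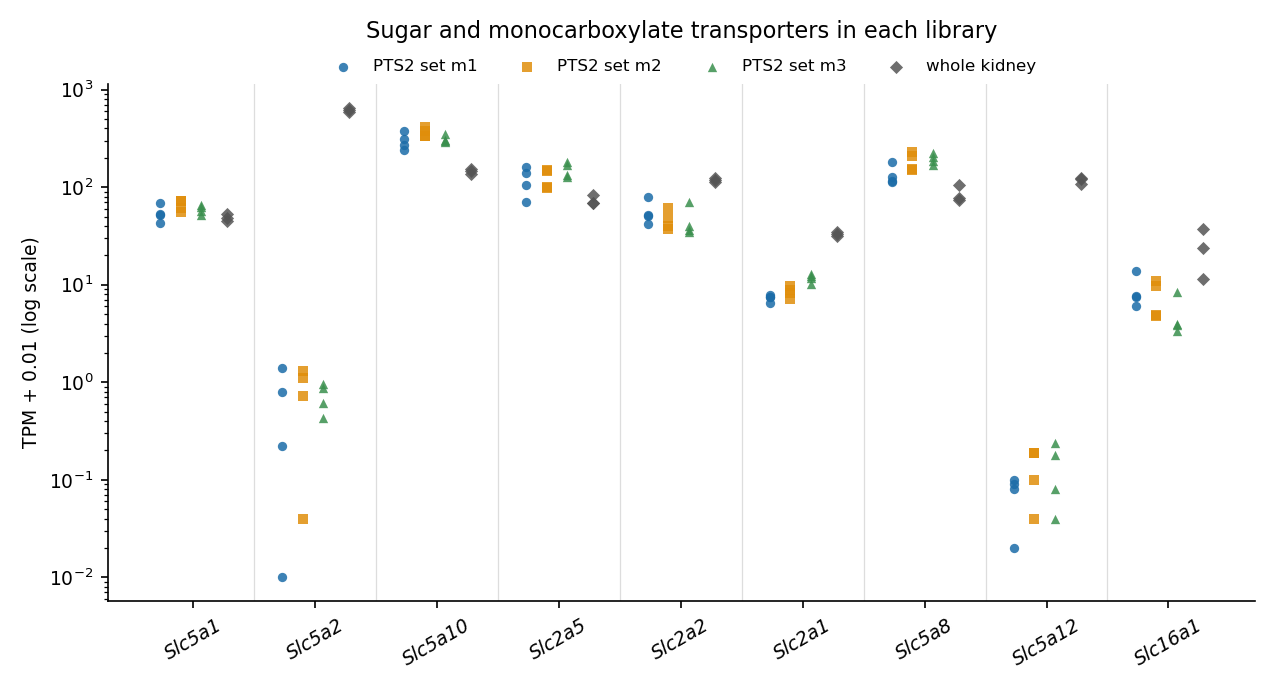
TPM plus 0.01 on a log axis for each of the 9 transporters, with 1 point per library (3 PTS2 sets of 4 libraries, and 3 whole kidney libraries). Slc5a2 and Slc5a12 sit at 1.38 TPM or below in every PTS2 library and at 108.39 TPM or above in every kidney library.

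**Figure D2:**
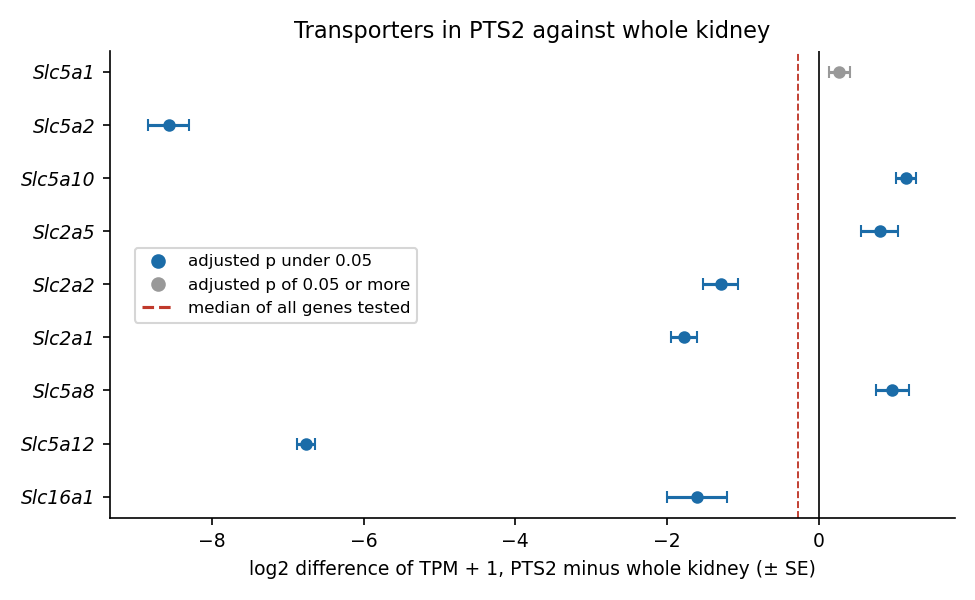
Difference of mean log2(TPM + 1), PTS2 minus whole kidney, for each transporter, with bars of 1 standard error from limma and the median of all genes tested as a dashed line at -0.27. Slc5a2 and Slc5a12 lie far to the left at -8.57 and -6.76, and Slc5a10 lies farthest to the right at 1.15.

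Of the pair Slc5a1 and Slc5a2, which encode the main apical glucose cotransporters, nearly all of the summed level in PTS2 was Slc5a1. Slc5a2 (ENSMUSG00000030781; build GRCm38, chr7:128265657-128272430, plus strand) encodes SGLT2, the high-capacity cotransporter that takes up most filtered glucose. It was listed between 0 and 1.38 TPM in the 12 PTS2 libraries, with a median of 0.750, and at 590.2, 618.59 and 654.82 TPM in the 3 kidney libraries. It was the highest of the 9 genes in kidney and next to the lowest in PTS2. The PTS2 mean of 0.698 ± 0.463 (SD, n = 12) was 0.112% of the kidney mean of 621 ± 32.4 (SD, n = 3). Slc5a2 passed the filter only through the kidney libraries, so that it had to differ. The log2 difference was -8.57 ± 0.27 (SE; adjusted p = 1.11e-13, limma). On the log2(TPM + 1) scale such a difference understates the change of genes this low, and on the TPM scale the kidney mean was 891-fold the PTS2 mean. The exons of Slc5a2 share 597 bases (20.6%) with BC017158 on the opposite strand, which was at 22.5 TPM in PTS2 and 28.2 in kidney. Without knowledge of strand in the counting, reads of both cannot be told apart there.

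Slc5a1 (ENSMUSG00000011034; chr5:33104219-33162870, plus strand) encodes SGLT1, the high-affinity glucose and galactose cotransporter. It ranged from 43.15 to 72.54 TPM over the PTS2 libraries with a median of 58.8, and was at 48.09, 44.82 and 53.1 TPM in kidney. Its groups overlapped, and all but 1 PTS2 library (m1 replicate 4) lay above the lowest kidney library. The means were 59.5 ± 9.11 (SD, n = 12) and 48.7 ± 4.17 (SD, n = 3), with a log2 difference of 0.27 ± 0.14 (SE; adjusted p = 0.125, limma), which did not pass the threshold. It passed at 0.53 with median-of-ratios rescaling (adjusted p = 0.00195), at 0.47 with quantile normalization (0.00403), at 0.31 without m1 replicate 4 (0.0455) and at 0.28 with 1 mean per PTS2 set (0.0355).

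Within each library, the share of Slc5a1 in the summed TPM of Slc5a1 and Slc5a2 ranged from 96.9% to 100% in PTS2 and from 6.76% to 7.53% in kidney. The groups were far apart. The mean share was 98.8% ± 0.904 (SD, n = 12) in the tubules and 7.26% ± 0.440 (SD, n = 3) in kidney, a difference of 91.5 percentage points. By exact permutation (two-sided) p was 0.0022, or 0.0044 after adjustment over 4 pairs of transporters, the smallest value that 455 arrangements can give when the 12 libraries are taken as independent. With Slc5a2 near 0 in PTS2 and high in kidney, the shares had to differ, so that this p adds nothing to the levels given above. With 1 mean per set the difference was again 91.5 points, and the adjusted p was 0.2 because 3 against 3 cannot go below 0.1 before adjustment.

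The transporters of fructose and mannose were the most abundant of the 9 in PTS2 together with Slc5a8. Slc5a10 (ENSMUSG00000042371; chr11:61672781-61720826, minus strand) encodes SGLT5, a sodium cotransporter of mannose and fructose. It ranged from 239.23 to 410.94 TPM in PTS2 with a median of 320, and was at 145.16, 136.21 and 152 TPM in kidney. Every PTS2 library exceeded every kidney library. The means were 325 ± 49.9 (SD, n = 12) and 144 ± 7.92 (SD, n = 3), a 2.25-fold difference, or 1.15 ± 0.14 on the log2 scale (SE; adjusted p = 3.02e-06, limma). Its exons share 393 bases (16.6%) with Fam83g on the opposite strand, which was low in both, at 2.87 TPM in PTS2 and 7.86 in kidney.

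Slc2a5 (ENSMUSG00000028976; chr4:150119283-150144169, plus strand) encodes the fructose carrier GLUT5. It ranged from 70.79 to 183.33 TPM in PTS2 with a median of 138, and was at 68.89, 68.34 and 83.26 TPM in kidney. Only m1 replicate 4, the lowest PTS2 library, lay within the kidney range. The means were 133 ± 33.5 (SD, n = 12) and 73.5 ± 8.46 (SD, n = 3), with a log2 difference of 0.80 ± 0.24 (SE; adjusted p = 0.0121, limma). The share of Slc2a5 in the sum of Slc2a5 and Slc5a10 was 28.7% ± 4.34 (SD, n = 12) in the tubules and 33.7% ± 1.62 (SD, n = 3) in kidney, so that Slc5a10 was the larger in both. That difference of -4.95 points did not pass the threshold (two-sided exact permutation p = 0.0769, adjusted p = 0.103), and it passed at -5.62 points without m3 replicate 2 (adjusted p = 0.0440).

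The facilitative glucose carriers were both lower in PTS2 than in kidney. Slc2a2 (ENSMUSG00000027690; chr3:28697903-28731359, plus strand) encodes GLUT2, the basolateral exit carrier of the early proximal tubule. It ranged from 35.08 to 78.44 TPM in PTS2 with a median of 45.2, and was at 119.4, 122.84 and 112.34 TPM in kidney. The groups did not overlap. The means were 49.3 ± 14.0 (SD, n = 12) and 118 ± 5.35 (SD, n = 3), so that PTS2 held 41.7% of the kidney level (log2 difference -1.29 ± 0.23, SE; adjusted p = 0.000216, limma). Among the 3 transporters usually assigned to S1, Slc2a2 thus was at 35.08 TPM or more in each PTS2 library, where Slc5a2 and Slc5a12 were near 0.

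Slc2a1 (ENSMUSG00000028645; chr4:119108711-119137983, plus strand) encodes GLUT1, a carrier found in many cell types. It ranged from 6.56 to 12.75 TPM in PTS2 with a median of 8.55, and was at 31.82, 34.46 and 33.3 TPM in kidney, again without overlap. The means were 9.18 ± 2.14 (SD, n = 12) and 33.2 ± 1.32 (SD, n = 3), a kidney level 3.62-fold that of PTS2 (log2 difference -1.78 ± 0.17, SE; adjusted p = 2.66e-07, limma). The share of Slc2a1 in the sum of Slc2a1 and Slc2a2 was 16.5% ± 5.38 (SD, n = 12) in the tubules and 21.9% ± 0.912 (SD, n = 3) in kidney. This difference of -5.47 points did not pass the threshold (two-sided exact permutation p = 0.125, adjusted p = 0.125).

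Of the sodium-coupled monocarboxylate transporters, Slc5a8 was high and Slc5a12 near 0 in PTS2. Slc5a12 (ENSMUSG00000041644; chr2:110597298-110647779, plus strand) encodes SMCT2, a low-affinity lactate transporter of the early tubule. It was listed between 0.01 and 0.23 TPM in PTS2 with a median of 0.085, and at 108.39, 122.17 and 125.21 TPM in kidney. It was the lowest of the 9 genes in PTS2 on average. The PTS2 mean was 0.0864% of the kidney mean of 119 ± 8.96 (SD, n = 3), a 1157-fold difference on the TPM scale and -6.76 ± 0.12 on the log2(TPM + 1) scale (SE; adjusted p = 1.51e-16, limma). Like Slc5a2, Slc5a12 passed the filter only through the kidney libraries and so had to differ.

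Slc5a8 (ENSMUSG00000020062; chr10:88885992-88929515, plus strand) encodes SMCT1, the high-affinity sodium-coupled transporter of lactate, pyruvate and short-chain fatty acids. It ranged from 111.98 to 227.56 TPM in PTS2 with a median of 175, and was at 78.19, 105.39 and 73.13 TPM in kidney. The groups did not overlap, though the highest kidney library came close to the lowest PTS2 library. The means were 171 ± 41.0 (SD, n = 12) and 85.6 ± 17.4 (SD, n = 3), a 2.00-fold difference (log2 difference 0.97 ± 0.22, SE; adjusted p = 0.00167, limma). Slc5a8 made up 99.9% ± 0.0378 (SD, n = 12) of the summed TPM of Slc5a8 and Slc5a12 in PTS2 and 41.7% ± 4.72 (SD, n = 3) in kidney. The difference of 58.2 points had a two-sided p of 0.0022 by exact permutation (0.0044 adjusted), and an adjusted p of 0.2 with 1 mean per set, the smallest that design allowed here. With Slc5a12 near 0 in PTS2 and not in kidney, these shares had to differ too.

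**Figure D3:**
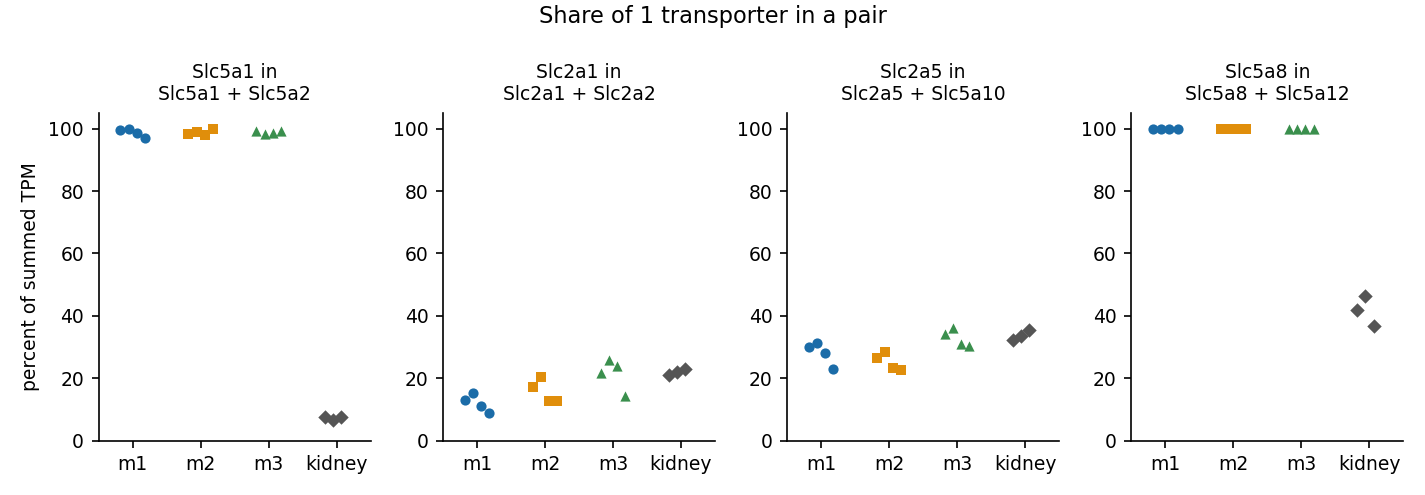
Percent of the first gene in the summed TPM of a pair, 1 point per library, in the 3 PTS2 sets and in whole kidney, on axes that start at 0. Slc5a1 lies at or above 96.9% in PTS2 and at or below 7.53% in kidney, and Slc5a8 lies near 100% in PTS2 and between 36.9% and 46.3% in kidney, while the groups overlap for the other pairs.

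Slc16a1 (ENSMUSG00000032902; chr3:104638668-104658462, plus strand) encodes MCT1, the proton-coupled carrier of lactate, pyruvate and ketone bodies, and its promoter with the E-box is printed above. It ranged from 3.37 to 13.82 TPM in PTS2 with a median of 6.72, and was at 37.51, 23.58 and 11.48 TPM in kidney. The kidney libraries were spread widely, and the lowest of them lay below the highest PTS2 library, m1 replicate 4. The means were 7.05 ± 3.22 (SD, n = 12) and 24.2 ± 13.0 (SD, n = 3), with a log2 difference of -1.60 ± 0.39 (SE; adjusted p = 0.0034, limma). Leaving out each library in turn gave log2 differences from -2.04 to -1.22.

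The contrasts with kidney did not rest on m3 replicate 3, the library with thick ascending limb RNA. Without it, 8 of the 9 transporters again passed the threshold, and the log2 differences were -8.59 for Slc5a2, -6.75 for Slc5a12, -1.81 for Slc2a1, -1.54 for Slc16a1, -1.27 for Slc2a2, 0.80 for Slc2a5, 0.98 for Slc5a8 and 1.16 for Slc5a10.

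By level in PTS2, the mean TPM ran in the order Slc5a10, Slc5a8, Slc2a5, Slc5a1, Slc2a2, Slc2a1, Slc16a1, Slc5a2 and Slc5a12. The ranges of neighbours in this order were apart between Slc5a10 and Slc5a8, between Slc2a2 and Slc2a1, and between Slc16a1 and Slc5a2. The other neighbours overlapped, although Slc2a5 exceeded Slc5a1 within each of the 12 libraries, Slc5a8 exceeded Slc2a5 in 11, Slc5a2 exceeded Slc5a12 in 10, Slc5a1 exceeded Slc2a2 in 9, and Slc2a1 exceeded Slc16a1 in 7. In kidney the order was Slc5a2, Slc5a10, Slc5a12, Slc2a2, Slc5a8, Slc2a5, Slc5a1, Slc2a1 and Slc16a1. There, Slc5a12 overlapped Slc2a2, Slc5a8 overlapped Slc2a5, and Slc2a1 overlapped Slc16a1, while the other neighbours were apart in the 3 libraries.

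Among the 3 PTS2 sets, compared without regard to the replicate numbers, Slc2a1 differed at an adjusted p under 0.05 and the other transporters tested did not pass. Of the 9, 7 could be tested, since Slc5a2 and Slc5a12 were below a mean of 1 TPM, and 3.02% of all 11300 genes tested passed. Slc2a1 was at 7.53, 7.4, 6.56 and 7.77 TPM in m1, at 8.22, 9.67, 7.12 and 8.88 in m2, and at 10.14, 12.25, 12.75 and 11.84 in m3. All 4 libraries of m3 lay above all of m1 and m2, which overlapped each other. The means were 7.32 ± 0.526, 8.47 ± 1.08 and 11.7 ± 1.13 TPM (SD, n = 4 libraries each), and limma's F test over the sets gave an adjusted p of 0.0223. The log2 difference of m3 minus m1 was 0.61 ± 0.12 (SE; adjusted p = 0.0125). Those of m3 minus m2 (0.43, adjusted p = 0.0926) and of m2 minus m1 (0.18, adjusted p = 0.599) did not pass. Of all genes tested, 3.17%, 1.97% and 0.54% passed in these 3 contrasts.

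The call of Slc2a1 over the sets was lost without m1 replicate 3 (adjusted p = 0.0586), m3 replicate 2 (0.0765), m3 replicate 3 (0.0935) or m3 replicate 4 (0.0549), and with quantile normalization (0.0647). The log2 difference of m3 minus m1 stayed between 0.57 and 0.68 with each library left out in turn. It was 0.58 without m3 replicate 3, but the call of Slc2a1 in that contrast was lost there, with 0 of 7 transporters passing. The highest value, 12.75 TPM, was that of m3 replicate 3, the library with 1441 TPM of thick ascending limb genes. GLUT1 is also known from endothelium. The summed TPM of 5 endothelial genes (Pecam1, Cdh5, Kdr, Emcn, Flt1) ranged from 12.74 to 21.49 in m1, from 10.29 to 19.11 in m2 and from 10.98 to 36.46 in m3, with all 5 below the kidney range in every PTS2 library and the sum at 129.64 to 137.45 in kidney. Within m3, the endothelial sums were 36.46, 22.44, 34.07 and 10.98 in replicates 1 to 4, where Slc2a1 was at 10.14, 12.25, 12.75 and 11.84 TPM. The sums of replicates 1, 2 and 3 of m3 lay above all those of m1 and m2, and that of replicate 4 did not. The part of endothelial RNA in the level of Slc2a1 was not tested.

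For Slc5a8, the sets had means of 134 ± 32.8, 185 ± 39.1 and 196 ± 24.9 TPM (SD, n = 4 libraries each) in m1, m2 and m3. The sets overlapped, and the adjusted p over them was 0.163 (limma), which fell to 0.0281 without m1 replicate 1, the highest library of m1. Slc16a1 had means of 8.74 ± 3.47, 7.53 ± 3.18 and 4.89 ± 2.33 TPM (adjusted p = 0.390). The other adjusted p-values over the sets were 0.389 for Slc5a10, 0.509 for Slc5a1, 0.570 for Slc2a5 and 0.704 for Slc2a2 (limma).

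**Figure D4:**
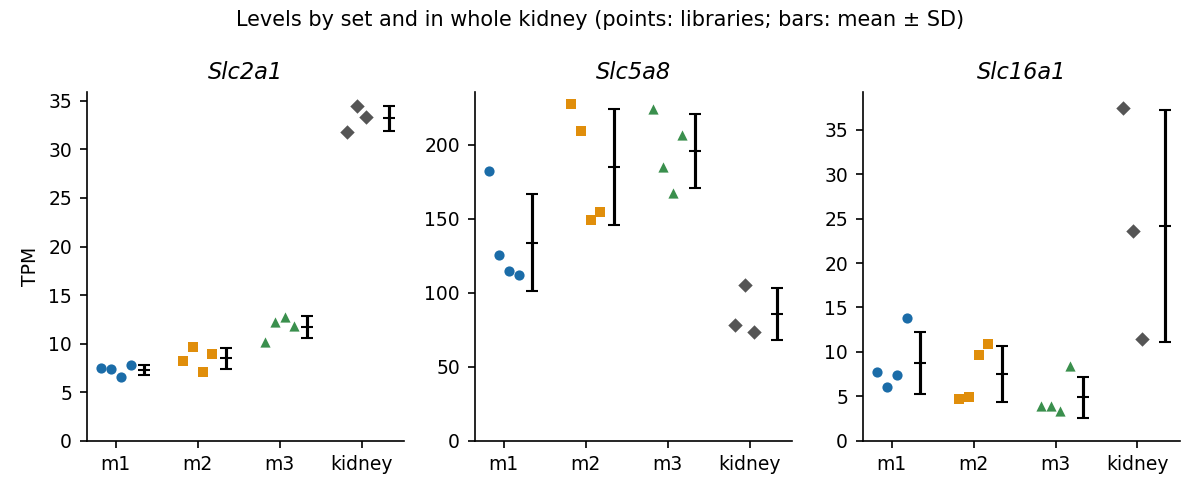
TPM of Slc2a1, Slc5a8 and Slc16a1 in the 3 PTS2 sets and in whole kidney, with 1 point per library, mean and SD beside the points, and axes that start at 0. The 4 libraries of m3 lie above those of m1 and m2 for Slc2a1, at 10.14 to 12.75 TPM, while the sets overlap for the other genes.

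The replicate numbers 1 to 4 recur in each set, and libraries with the same number shared levels of several transporters. In limma's F test over the numbers, with the set as a covariate, 2 of the 7 transporters tested passed, Slc2a2 and Slc2a5, against 2.71% of all 11300 genes tested. Slc2a2 was at 50.44, 41.45, 51.98 and 78.44 TPM in m1 replicates 1 to 4, at 39.63, 37.42, 48.88 and 60.48 in m2, and at 36.8, 35.08, 40.22 and 70.2 in m3. Number 4 was the highest and number 2 the lowest in every set. The means over the sets were 42.3, 38.0, 47.0 and 69.7 TPM for numbers 1 to 4 (adjusted p = 0.00943).

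Slc2a5 was at 162, 141.32, 105.62 and 70.79 TPM in m1, at 148.17, 150.16, 100.77 and 98.13 in m2, and at 183.33, 170.6, 134.71 and 125.71 in m3. Number 4 was the lowest in every set, and numbers 1 and 2 were both above numbers 3 and 4 in every set. The means over the sets were 164.5, 154, 114 and 98.2 TPM (adjusted p = 0.0142). The carriers Slc2a2 and Slc2a5 thus lay at opposite ends in the libraries numbered 4.

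Slc16a1 was at 7.71, 6.02, 7.41 and 13.82 TPM in m1, at 4.72, 4.9, 9.59 and 10.9 in m2, and at 3.95, 3.87, 3.37 and 8.36 in m3, with number 4 the highest each time. Its adjusted p over the numbers was 0.0586 (limma), which did not pass, and it passed without m2 replicate 3 (0.0115) or m3 replicate 3 (0.0445). With Slc2a2 and Slc2a5, 3 of the 7 transporters had number 4 highest or lowest in all 3 sets, as had 9.27% of all genes tested. Slc5a1, Slc5a8 and Slc5a10 instead had number 1 highest in all 3 sets, where 14.6% of all genes had number 1 highest or lowest. The number means of Slc5a10 were 381, 330, 300.3 and 288 TPM, and the adjusted p-values were 0.0589 for Slc5a10, 0.0700 for Slc5a8, 0.265 for Slc5a1 and 0.687 for Slc2a1.

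Markers of the tubule segments moved with the numbers too. The summed TPM of the S2 genes was highest in number 4 of each set, at 1149, 892 and 1024, against at most 762, 693 and 446 in the other numbers of m1, m2 and m3. The sum of the S3 genes was lowest in number 4 of each set, at 2107, 2844 and 2939, and highest in number 1, at 4159, 4483 and 4235. The sum of 4 principal cell genes (Aqp2, Aqp3, Avpr2, Scnn1g) was also highest in number 4, at 50.45, 21.6 and 30.31 TPM, against a kidney mean of 666. Most of that sum was Aqp3, with means of 11.6, 14.3, 16.5 and 31.4 TPM for numbers 1 to 4. The Aqp2 mean in number 4, 2.54 TPM (SD 3.79), came mostly from the 6.9 TPM of m1. By mean, Avpr2 was highest in number 3 and Scnn1g in number 1, both under 1 TPM. The sum of 4 macrophage genes, most of it Csf1r, was instead highest in number 1, at 45.29, 57.46 and 73.45 TPM, and lowest in number 4, at 19.32, 29.96 and 38.61. Csf1r passed over the numbers (adjusted p = 0.00943, limma). The other genes of that sum, all low, went the opposite way. Cd68, C1qa and Adgre1 had their highest means in number 4, at 1.05, 2.30 and 0.32 TPM, against 0.74, 1.61 and 0.21 in number 1. The part of these in the levels of the transporters was not tested. Both calls over the numbers were lost when genes of any level were kept (adjusted p = 0.0789 for Slc2a2 and 0.136 for Slc2a5) and without the set term (0.112 and 0.222).

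**Figure D5:**
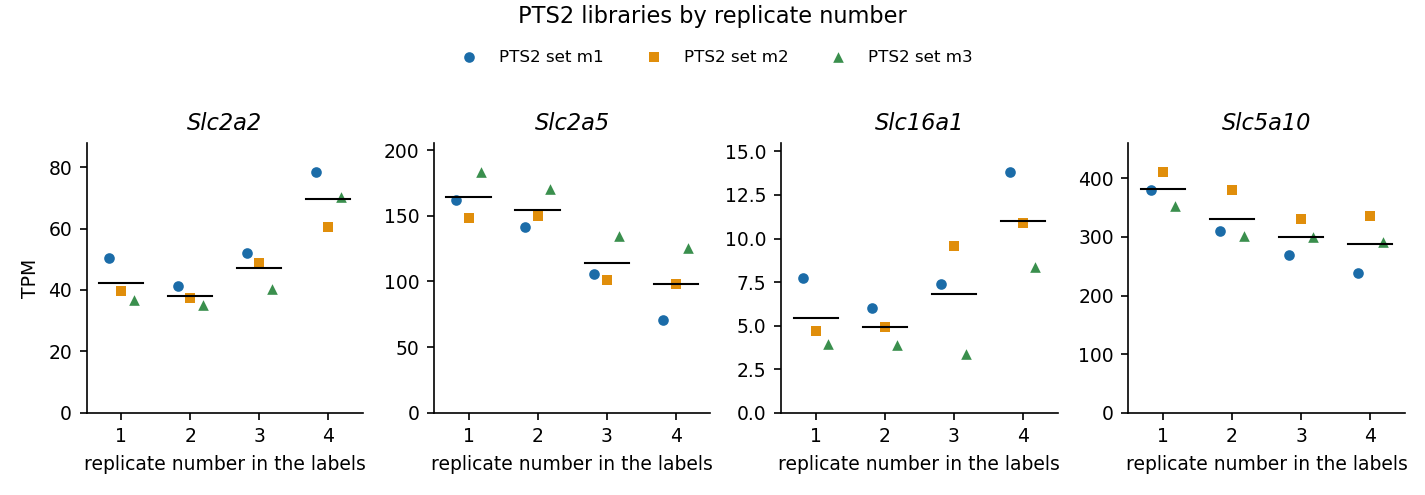
TPM of Slc2a2, Slc2a5, Slc16a1 and Slc5a10 in the 12 PTS2 libraries by replicate number, with 1 point per library, the mean of the 3 sets as a line, and axes that start at 0. Number 4 is the highest of each set for Slc2a2 and Slc16a1 and the lowest for Slc2a5, with means of 69.7, 11.0 and 98.2 TPM.

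Slc2a5 varied most over the PTS2 libraries among the 5 transporters with a PTS2 mean of at least 10 TPM (SD of 0.40 on the log2 scale). Among the 5 genes whose profiles over the 12 libraries were nearest to it, of 6446 genes compared, were Nceh1, Irf5, Adgre5 and Asah1. Their root-mean-square differences from the centred log2 profile of Slc2a5 were 0.12, 0.13, 0.14 and 0.14, where the median of all genes was 0.40. The libraries share sets and numbers, and no test was made of this likeness.

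Relatives of the 9 transporters were mostly low in PTS2 or close to the kidney level. Of 9 other SLC2 genes, 4 could be tested, of which 3 were lower in PTS2 and none higher (median log2 difference -1.70, against -0.27 for all genes, of which 38.2% were lower). Of these 3, Slc2a4 and Slc2a12 passed the filter on low values only through the kidney libraries and so had to differ. Slc2a4, the insulin-responsive GLUT4, was at 0.745 ± 2.12 TPM (SD, n = 12) in the tubules and 25.7 ± 5.78 (SD, n = 3) in kidney, and 7.46 TPM of it was found in m3 replicate 3, against at most 0.43 in the other PTS2 libraries. Slc2a8 fell from 19.98 TPM in kidney to 7.41 in PTS2 (log2 difference -1.33), and Slc2a12 from 4.87 to 0.403 (-2.06). The urate carrier gene Slc2a9 was at 2.39 and 1.68 TPM and did not pass (adjusted p = 0.105, limma).

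Of 8 other SLC5 genes, 4 were tested and only Slc5a3, the sodium and inositol cotransporter, differed, with 2.78 ± 1.94 TPM (SD, n = 12) in the tubules and 35.6 ± 2.89 (SD, n = 3) in kidney (log2 difference -3.40, adjusted p = 9.44e-07, limma). The median of the 4 was 0.04. Slc5a11, a second inositol cotransporter, was at 52.8 TPM in PTS2 and 54.0 in kidney (adjusted p = 0.818). Slc5a9, the mannose and glucose cotransporter SGLT4, passed over the replicate numbers (adjusted p = 0.0116), with means of 37.6, 27.4, 23.0 and 19.7 TPM for numbers 1 to 4.

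Of 13 other SLC16 genes, 11 were tested, of which 2 were higher and 4 lower in PTS2 (median -0.12), where 8.69% of all genes were higher and 38.2% lower. Of the 4 lower, Slc16a5 and Slc16a10, with PTS2 means of 0.692 and 0.670 TPM, passed the filter only through the kidney libraries and so had to differ. Slc16a4 was at 158 ± 18.9 TPM (SD, n = 12) in the tubules and 113 ± 10.3 (SD, n = 3) in kidney (log2 difference 0.47, adjusted p = 0.00342, limma), and Slc16a13 was at 72.6 and 53.2 TPM (0.44, adjusted p = 0.0425). Slc16a9 was at 115 and 90.3 TPM and did not pass (adjusted p = 0.113). Slc16a7, which encodes the high-affinity lactate carrier MCT2 and is named after its values were seen, was at 1.19 ± 3.56 TPM in PTS2 and 78.2 ± 4.73 in kidney (SD, n = 12 and 3; log2 difference -5.80). Its highest PTS2 value, 12.49 TPM, was in m3 replicate 3, and the other PTS2 libraries had at most 0.39, so that it too was near 0 in all but that library. By mean TPM in PTS2, Slc16a4, Slc16a9 and Slc16a13 were above Slc16a1, and Slc16a5, Slc16a7 and Slc16a10 were below it.

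Of 5 partner and scaffold genes, 2 were higher and 2 lower in PTS2 (median 0.27), where 8.69% of all genes were higher and 38.2% lower (median -0.27). Of the 2 lower, Emb, at 0.68 TPM in PTS2 and 27.9 in kidney, passed the filter only through the kidney libraries and so had to differ. Pdzk1ip1, whose product MAP17 is the accessory subunit that SGLT2 needs for activity, was at 824 ± 108 TPM (SD, n = 12) in the tubules and 1771 ± 104 (SD, n = 3) in kidney (log2 difference -1.11, adjusted p = 1.01e-06, limma). It was thus still abundant in tubules with Slc5a2 near 0. Pdzk1, a brush border scaffold, was at 1405 and 1050 TPM (0.42), and Bsg, which encodes the basigin chaperone of MCT1, was at 1009 and 834 TPM (0.27). Rsc1a1, a regulator of SGLT1, was at 7.08 and 4.38 TPM and did not pass (adjusted p = 0.0889).

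Both genes given here of the sodium pump, which keeps the gradient that the SLC5 carriers use, were lower in PTS2. Atp1b1, its beta subunit, was at 539.5 ± 51.7 TPM (SD, n = 12) in the tubules and 782 ± 69.3 (SD, n = 3) in kidney (log2 difference -0.54, adjusted p = 0.00019, limma). Fxyd2, its gamma subunit, was at 3997 and 5235 TPM (-0.40, adjusted p = 0.00647).

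Of 11 genes for the first steps of sugar and lactate use, 8 were tested, with 4 higher and 2 lower in PTS2 (median 0.09). Of all genes, 8.69% were higher and 38.2% lower (median -0.27). Hk1, which was among the 2 lower, had a PTS2 mean of 1.56 TPM, or 0.78 without m3 replicate 3, which held 10.06, against 46.1 in kidney. Khk, the fructose kinase, was at 1183 ± 66.6 TPM (SD, n = 12) in the tubules and 691 ± 57.1 (SD, n = 3) in kidney (log2 difference 0.78, adjusted p = 1.24e-07, limma) and is named after its values were seen. The lactate dehydrogenase genes Ldha and Ldhb moved oppositely, with log2 differences of 0.38 and -0.42, and Pck1, of gluconeogenesis, was at 1859 and 1935 TPM (adjusted p = 0.986). Ldhb also passed over the replicate numbers (adjusted p = 0.00943). G6pc, which releases free glucose and is named after its values were seen, did not differ from kidney beyond its spread (adjusted p = 0.493) but passed over the sets, where m1 had 446 ± 129, m2 299.6 ± 97.4 and m3 155 ± 67.4 TPM (SD, n = 4 libraries each; adjusted p = 0.0179), and over the numbers (adjusted p = 0.0102).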

How the data were processed

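The authors deposited 1 table of TPM for 47069 genes, with 15 library columns and 4 columns of means and standard errors that were not used here. Per the submitters' processing notes, STAR 2.5.1b, RSEM 1.2.31 and the build GRCm38.p5 were used. The annotation release and the use of strand are not given in the sources used here. No columns held identical values. Libraries were grouped by the description labels.

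The fits across genes used limma 3.58.1 (R 4.3.3) on log2(TPM + 1), with eBayes and its trend over the mean. Genes were kept at a mean TPM of 1 or more, with Benjamini-Hochberg adjustment over all genes tested and a threshold of 0.05. PTS2 was compared with whole kidney with the set as a correlated block (estimated correlation 0.0957), the sets with an F test, and the replicate numbers with an F test and the set as a covariate. Shares of a pair were compared with exact permutation tests (scipy 1.17.1, numpy 2.4.6 and pandas 2.3.3 under Python 3.11.15). The tests across genes were tested on simulated data. Figures were drawn with matplotlib 3.10.9. Gene positions are from GENCODE M21 (GRCm38), whose gene bodies hold exons and introns, and promoters are from RefSeq (GRCm38.p6).

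Named genes are the 9 transporters, up to 4 genes of each list (the largest means over the 15 libraries, plus a gene whose call a result turned on), the 5 genes nearest to the most variable transporter, and those said to be named after their values were seen. Some genes that met this rule, and other promoter motifs that were searched, are not reported here. The transporters and all lists were chosen with earlier results of these data known. Alternatives were quantile normalization, median-of-ratios rescaling, a pseudocount of 0.1, a mean TPM of 10 or more, no filter, other treatments of sets and numbers, and each library left out in turn. For the shares they were a log2 ratio, a difference of medians and 1 mean per set. One, each kidney library as a block of its own, was chosen after seeing the data.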

Additional observations from a re-analysis of the deposited data

Results flagged for a closer look

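The values of the 9 transporters and of their shares within pairs were searched for single libraries far from the rest of their set, with 39 tests in all, of which 2 gave such a library. Chance alone gives about 1 in 20, or 1.95 of 39. Slc2a2 in m3 replicate 4 was at 70.2 TPM, where the next library of m3 was at 40.22 and the lowest at 35.08, so that the gap was 0.854 of the range of the set. Slc16a1 in m3 replicate 4 was at 8.36 TPM, where the next was at 3.95 and the lowest at 3.37, a gap of 0.884 of the range. In that library, the summed TPM of the S2 genes Slc22a6 and Slc22a8 was 1024, against at most 446 in the other libraries of m3, and the part of this in both values was not tested.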

How the results depend on the processing

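The directions of the 9 transporters against whole kidney were kept under every alternative run, and the 8 that passed the threshold passed it in each. The 9th, Slc5a1, passed in 4 of them, as given above. The number of genes called against kidney, 5645, was 9582 without a filter and 2725 at a mean TPM of 10 or more (12039 tested became 30969 and 6737), and 4469 to 6433 with each library left out in turn. For the sets, where 341 genes and 1 transporter passed, 196 genes passed without a filter. With a mean TPM of 10 or more, 0 transporters passed, since Slc2a1 was then not tested (1 of 5 at an unadjusted p under 0.05 in limma), and with quantile normalization 0 did (3 of 7 at an unadjusted p under 0.05). With each library left out in turn, 197 to 563 genes and 0 to 2 transporters passed. For the replicate numbers, where 306 genes and 2 transporters passed, 0 genes and 0 transporters passed in limma without a filter (2871 genes and 5 transporters at an unadjusted p under 0.05) and without the set term (1419 genes and 4 transporters). With a mean TPM of 10 or more, 4 transporters passed, with Slc5a8 (adjusted p = 0.0338) and Slc5a10 (0.0322) added, and 75 to 507 genes and 2 to 3 transporters passed with each library left out. Slc5a8 also passed with median-of-ratios rescaling (0.0497). Of the shares, those of Slc5a1 and Slc5a8 differed by 91.5 and 58.2 points with 1 mean per set, with adjusted p = 0.2, and that of Slc2a5 by -5.69 to -4.09 points with each library left out. Apart from changes in which genes or libraries entered, the causes were not tested.

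With a replicate block, 888 genes and 2 transporters passed over the sets, Slc2a1 and Slc5a8 (adjusted p = 0.0108), and 5646 genes and the 8 transporters passed against kidney. Between pairs of sets, that block gave 4 of 7 transporters for m3 minus m1 and 1 for m2 minus m1, where 1 and 0 passed without it (0 with 2 at an unadjusted p under 0.05 in limma). Deviations from the set means correlated at 0.143 on average over 12 same-numbered pairs of libraries (the lowest 0.0254, with 7 over 0.1) and at -0.0481 over 36 other pairs, and 9 of 12 libraries correlated best with their own number, a hint from the data and not the design. Depth is unknown, so values near 0, such as those of Slc5a2 and Slc5a12 in PTS2, carry no counting error here.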

Other observations

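The 3 whole kidney libraries, which agreed closely for most of the transporters, differed for Slc16a1 at 37.51, 23.58 and 11.48 TPM in replicates 1 to 3. Arntl, which encodes the clock factor BMAL1 and was chosen after values were seen, was at 13.97, 6.30 and 2.98 TPM in the same libraries, in the same order. Among the PTS2 sets, Arntl was at 6.71 ± 1.14 TPM for m1, 7.82 ± 0.765 for m2 and 2.29 ± 0.641 for m3 (SD, n = 4 libraries each; adjusted p = 0.000377, limma F test), and Slc16a1 was at 8.74 ± 3.47, 7.53 ± 3.18 and 4.89 ± 2.33 TPM (adjusted p = 0.390). Arntl and Slc16a1 both had their lowest mean in m3. Slc5a1, the other gene printed with the E-box, was not in the order of Arntl in kidney, at 48.09, 44.82 and 53.1 TPM in replicates 1 to 3. Its means were 54.3, 65.2 and 59.0 TPM in m1, m2 and m3, the lowest in m1. A relation of either transporter to Arntl was not tested.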
